A study of Mus musculus with 7 samples.

Results

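The AMPA receptor genes described here are the 4 channel subunits Gria1, Gria2, Gria3 and Gria4, the 4 transmembrane AMPA receptor regulatory proteins (TARPs) Cacng2, Cacng3, Cacng5 and Cacng8, and the 2 cornichons Cnih2 and Cnih3. They are 10 of the 39017 Ensembl gene IDs in the count table, chosen by symbol, and each symbol matched 1 ID. RNA was sequenced after translating ribosome affinity purification (TRAP) from the hippocampus of mice that carried a Gad2-driven Cre and an EGFP-tagged ribosomal protein L10, with 2 hippocampi pooled per TRAP sample. The 3 bound libraries (titles GAD_ctrl) hold RNA recovered with the tagged ribosomes, and the 4 unbound libraries hold RNA that was not recovered with them. Unbound replicates 1 and 2 carry the title prefix UBS and replicates 3 and 4 the prefix UBGS, and the labels do not explain the prefixes. Both groups are given the same genotype and tissue, and neither age, sex nor a pairing of bound with unbound libraries is given. Gad2 is expressed in GABAergic neurons as a class, so the tagged cells are a mixture of interneuron types, and any other cell in which the Cre acted would be tagged too.

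AMPA receptors are tetramers of the subunits GluA1 to GluA4 and carry most fast excitatory transmission in the brain. A receptor that contains GluA2 barely admits calcium, because the GluA2 transcript is edited at a single codon in the pore, the Q/R site, by the enzyme ADAR2. Receptors without GluA2 admit calcium and are blocked from inside by polyamines, and such receptors are known from several types of hippocampal interneuron. TARPs and cornichons are auxiliary subunits that change the receptor's trafficking and gating. Type I TARPs and cornichons help it reach the surface and slow its closing, whereas type II TARPs such as the product of Cacng5 act differently on both.

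The Q/R site is shown because it sets Gria2 apart from the other subunits in the protein and not in the genome. The coding sequences below are from the principal GENCODE M21 transcripts (GRCm38, the assembly of mm10), 5′ to 3′, with the Q/R codon in capitals.
Gria1: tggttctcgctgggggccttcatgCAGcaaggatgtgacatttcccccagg
Gria2: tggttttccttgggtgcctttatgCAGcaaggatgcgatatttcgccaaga
Gria3: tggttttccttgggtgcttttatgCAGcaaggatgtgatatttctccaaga
Gria4: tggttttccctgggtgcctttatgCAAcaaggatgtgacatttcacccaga
All 4 genes encode glutamine there before editing, with CAG in Gria1, Gria2 and Gria3 and CAA in Gria4. The Gria2 codon lies at chr3:80706911-80706913 on the minus strand, in exon 11 of 16, and the Gria4 codon at chr9:4464137-4464139 on the minus strand, in exon 12 of 17. The Gria1 codon lies at chr11:57243094-57243096 and the Gria3 codon at chrX:41610265-41610267, both on the plus strand and in exon 11 of 16. Over these 51 bases Gria2 differs from Gria3 at 3 positions, from Gria4 at 6 and from Gria1 at 10. The deposited values are counts per gene, so they hold neither the edited share nor the flip and flop splice forms.

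Library totals ranged from 38690380 to 51953811 counts. All 10 genes passed the filter on low counts, and the smallest count of any of them in any library was 252 (Cacng5, unbound), where counting error is largest. As a check of the labels, all 9 GABAergic markers tested were higher in bound libraries, with a summed level of 3231 to 3679 CPM (counts relative to library size, with sizes scaled by the trimmed mean of M-values, TMM) against 544 to 652 CPM in unbound libraries. All 8 excitatory neuron markers were lower, at 365 to 522 CPM summed in bound and 2731 to 3179 CPM in unbound libraries. Of 7 astrocyte markers 6 were lower (228 to 249.7 CPM against 1912 to 2832 CPM), and all 6 oligodendrocyte precursor markers were lower (18.1 to 24.7 CPM against 126 to 141 CPM), as were all 6 oligodendrocyte markers (329 to 403 CPM against 1189 to 1376 CPM). All 11 microglia markers were higher, at 328, 759.7 and 271 CPM summed in bound replicates 1 to 3 and 88.4 to 134 CPM in unbound libraries. No marker of these lists was at 0 in all bound libraries, and the part of other cell types in the values below was not tested.

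The AMPA receptor genes did not move together between the groups. Gria2 and Gria3 fell in bound libraries, Gria4 rose, and Gria1 did not pass the test. All 4 TARPs rose, Cacng5 the most. But after correction for exon length (the length offset, below) Cacng3 did not pass (log2 0.14), and Cacng8 stood at −0.033 on the log2 scale. Of the cornichons Cnih2 rose, though not with the length offset (−0.089), and Cnih3 fell, though not with library totals in place of TMM (−0.0098). Of the 10 genes, 9 differed between the groups (edgeR quasi-likelihood test, Benjamini-Hochberg adjusted p under 0.05 over all genes tested), 6 higher and 3 lower. Of all 19563 genes tested 61.7% differed, 31% higher and 30.7% lower. The 2 groups were fully separated for 8 of the 10 genes, and for 63.3% of all genes tested. In bulk RNA, a smaller share of cells with a transcript cannot be told apart from less of that transcript per cell. Bound RNA was recovered with the tagged ribosomes and unbound RNA was not. A fold between them therefore also mixes ribosome association with cell type and RNA level, which cannot be told apart here. Folds set bound over unbound. Means are given ± SD, with n = 3 for bound and n = 4 for unbound libraries.

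**Figure D1:**
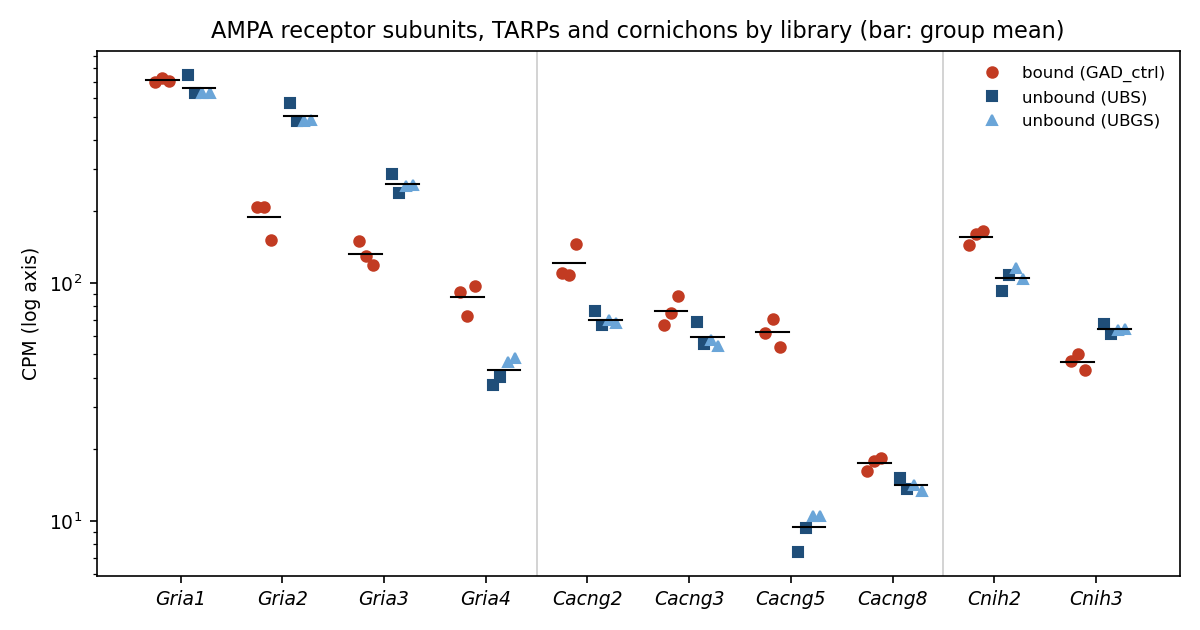
Level of each gene in each library, in CPM on a log axis, with bound libraries as circles on the left of each pair and unbound libraries on the right (squares UBS, triangles UBGS); bars mark group means. Gria2 and Gria3 sit lower in all bound libraries, Gria4 and Cacng5 sit higher, and Gria1 and Cacng3 overlap between the groups.

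Gria2 (ENSMUSG00000033981, chr3:80681450-80802835, minus strand), the subunit that makes receptors calcium-impermeable, fell 2.66-fold. It stood at 208, 208 and 151 CPM in bound replicates 1 to 3 and at 572, 478, 477 and 482 CPM in unbound replicates 1 to 4. Every bound library was below every unbound library, and bound replicate 3 was the lowest. The log2 fold change was −1.41 (SE 0.12, edgeR adjusted p = 2e-06). When each library's trend of log2 CPM on exon length was removed, the fall of Gria2 was smaller, at −0.69 on the log2 scale (edgeR adjusted p = 0.00026). That correction used the merged exon length of Gria2, 15548 nucleotides, while its longest transcript has 10371. A correction with the longest transcript was not tested.

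Gria3 (ENSMUSG00000001986, chrX:41400854-41678601, plus strand), the subunit closest to Gria2 around the Q/R site, fell 1.96-fold. Its levels were 149, 129.6 and 119 CPM in bound replicates 1 to 3 and 286, 239, 256 and 259 CPM in unbound replicates 1 to 4. The groups did not overlap, and the log2 fold change was −0.97 (SE 0.09, edgeR adjusted p = 4.6e-06). The fall was smaller with the length offset, at −0.55 on the log2 scale (edgeR adjusted p = 0.00024). It was also smaller with library totals in place of TMM, at −0.53 (edgeR adjusted p = 0.00059).

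Gria4 (ENSMUSG00000025892, chr9:4417896-4796234, minus strand), whose product has rapid kinetics and is known from parvalbumin interneurons, rose 2.02-fold. It stood at 91.9, 72.9 and 97.0 CPM in bound replicates 1 to 3 and at 37.3, 40.1, 46.6 and 48.5 CPM in unbound replicates 1 to 4. Every bound library was above every unbound library, and the log2 fold change was 1.02 (SE 0.12, edgeR adjusted p = 2.4e-05). Bound replicate 2 was the lowest bound library for Gria4, and it also had the lowest summed level of the 7 parvalbumin interneuron markers, with 1045, 940.7 and 1169 CPM in bound replicates 1 to 3. The summed level was 343 to 353 CPM in unbound libraries, and 6 of the 7 markers were higher and 1 lower in bound libraries. The summed GABAergic markers had the same order, at 3401, 3231 and 3679 CPM in bound replicates 1 to 3. The GABAergic and parvalbumin lists share Lhx6 and Erbb4, so their sums are not independent. Excitatory markers (365, 522 and 414 CPM) and the microglia markers were highest in bound replicate 2. The part of these cell types in the Gria4 level was not tested.

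Gria1 (ENSMUSG00000020524, chr11:57011387-57330244, plus strand), the subunit with the highest level in both groups, stood at 701, 729 and 708 CPM in bound replicates 1 to 3. In unbound replicates 1 to 4 it stood at 751, 630.1, 629 and 631 CPM. The means were 712 ± 14.8 CPM in bound libraries, against 660.3 ± 60.4 CPM in unbound ones. The bound values lay inside the unbound range, because unbound replicate 1 was high, and the log2 fold change of 0.11 did not pass (SE 0.08, edgeR adjusted p = 0.24). Without unbound replicate 1 the log2 fold change was 0.20 and passed (edgeR adjusted p = 0.014, over a range from 4.7e-05 to 0.73 across 13 alternatives). With the length offset or with library totals in place of TMM it also passed, at 0.31 and 0.55 on the log2 scale.

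Gria2 was then set against each other subunit inside each library, a ratio that does not depend on how libraries are scaled. The log2 ratio of Gria2 to Gria1 counts was −1.75, −1.81 and −2.23 in bound replicates 1 to 3, and lay between −0.40 and −0.39 in all 4 unbound libraries. The ratio was thus 2.90-fold lower in bound libraries, and the unbound libraries were almost equal to each other. The log2 ratio of Gria2 to Gria4 was 1.18, 1.51 and 0.64 in bound replicates 1 to 3 and 3.94, 3.58, 3.36 and 3.32 in unbound replicates 1 to 4, which is 5.41-fold lower in bound libraries. The log2 ratio of Gria2 to Gria3 was 0.48, 0.68 and 0.35 in bound replicates 1 to 3 and 1.0, 1.0, 0.90 and 0.90 in unbound replicates 1 to 4, which is 1.36-fold lower. For each of the 3 ratios all bound libraries were below all unbound libraries. The two-sided exact permutation test over samples, with 35 arrangements, gave p = 0.0571 for each, 0.0571 also after adjustment over the 3 ratios, which is the smallest p that 3 against 4 libraries allow. With the length offset the differences in log2 ratio were −1.02 to Gria1, −1.94 to Gria4 and −0.15 to Gria3, against −1.53, −2.43 and −0.45 without it. With it the libraries overlapped for the ratio to Gria3 (exact permutation p = 0.229), while the other 2 ratios stayed at the smallest p. Gria2 has the longest merged exons of the 4 subunits, and the length offset was computed with merged exon length only.

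**Figure D2:**
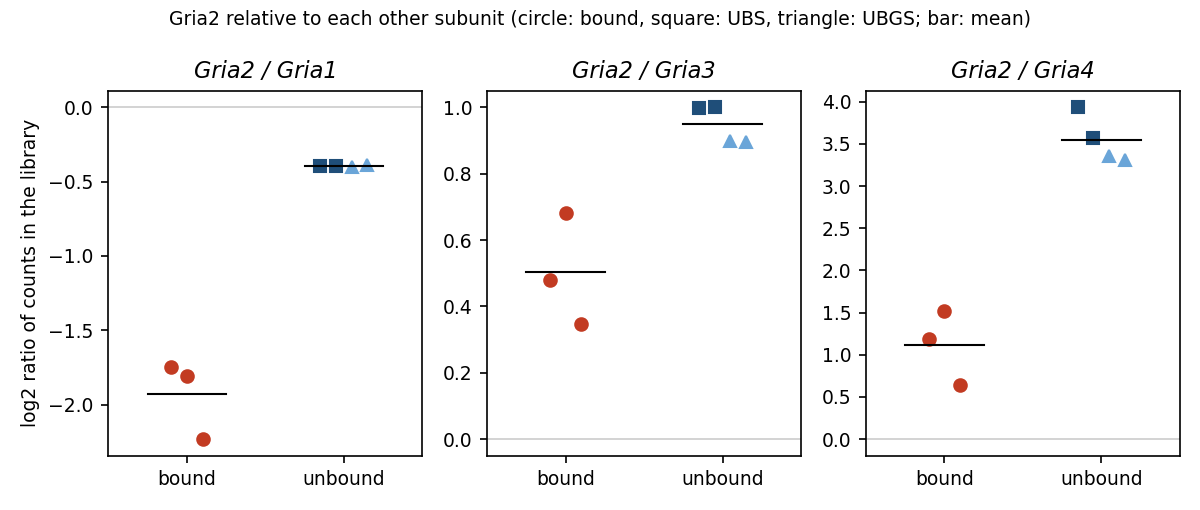
Log2 ratio of Gria2 counts to those of Gria1, Gria3 and Gria4 in each library (bound left, unbound right; circles bound, squares UBS, triangles UBGS; bars are means). Each ratio is lower in all 3 bound libraries, with log2 differences of −1.53, −0.45 and −2.43, or −1.02, −0.15 and −1.94 with the length offset.

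Levels of different genes were compared per kilobase of merged exons. In bound libraries Gria1 stood at 118 ± 2.45 CPM per kilobase, against 13.8 ± 2.01 for Gria4, 13.4 ± 1.58 for Gria3 and 12.2 ± 2.13 for Gria2. The last 3 did not differ beyond their spread with this length. Per kilobase of the longest transcript, Gria3 stood higher in bound libraries, at 25.5 ± 2.99, against 18.2 ± 3.19 for Gria2 and 16.0 ± 2.33 for Gria4. In unbound libraries Gria1 stood at 109 CPM per kilobase, Gria2 at 32.3 ± 2.98, Gria3 at 26.4 ± 1.98 and Gria4 at 6.84 ± 0.837. Among all 10 genes, the bound order began with Gria1 and Cnih2 (114 ± 7.82), which did not differ beyond their spread, and went on with Cacng3 (27.5 ± 3.89), Cacng2 (22.04 ± 3.90), Cnih3 (17.0 ± 1.31) and Cacng5 (16.2 ± 2.14). Only Cacng8 (7.44 ± 0.493) stood below Gria4, Gria3 and Gria2. Cacng3 was above Cacng2, and Cacng2 above Cnih3, in each bound library, while Cnih3 and Cacng5 did not differ beyond their spread. In unbound libraries the order was Gria1, Cnih2 (76.7 ± 7.06), Gria2, Gria3, Cnih3 (23.2 ± 0.988), Cacng3 (21.2 ± 2.40), Cacng2 (12.7 ± 0.780), Gria4, Cacng8 (6.002 ± 0.355) and Cacng5 (2.46 ± 0.376), where Cnih3 and Cacng3, and Gria4 and Cacng8, did not differ beyond their spread. Gria2 was thus rank 9 of 10 by level per kilobase in bound and rank 3 in unbound libraries, or rank 6 and rank 4 with the longest transcript as the length, where Gria3 was rank 4 in bound and rank 3 in unbound libraries.

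As a share of the summed level per kilobase of the 4 subunits, Gria2 made up 7.72% ± 1.23 in bound libraries and 18.5% ± 0.238 in unbound libraries. Gria4 made up 8.80% ± 1.38 in bound and 3.95% ± 0.689 in unbound libraries, and Gria3 8.54% ± 0.890 in bound and 15.1% ± 0.448 in unbound libraries. Gria1 made up 74.9% ± 1.78 in bound and 62.5% ± 0.847 in unbound libraries. The shares depend on the length taken for each gene, since the merged exons of all Gria2 transcripts span 15548 nucleotides and its longest transcript 10371. With the longest transcript the Gria2 share was 9.67% in bound and 21.5% in unbound libraries, and with counts alone 16.8% and 34.3%. The Gria2 share was lower in bound libraries by each of these measures. This follows from the lower ratios above, since the length of a gene is the same in every library. The length offset was not applied to the shares.

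**Figure D3:**
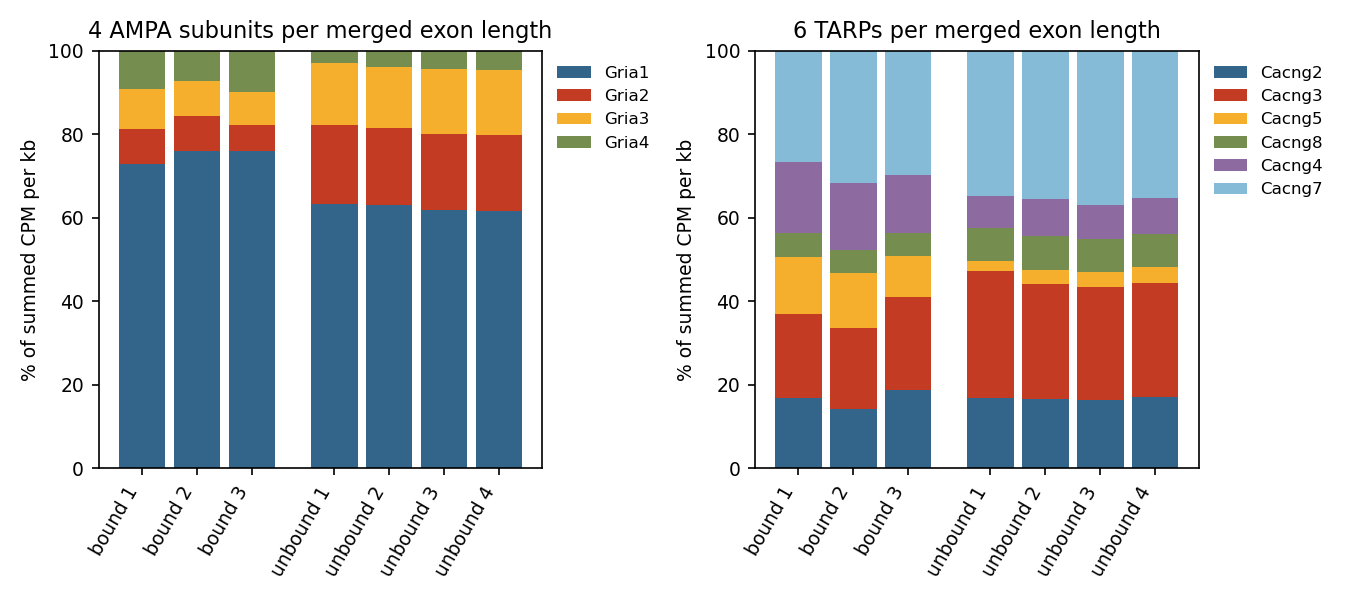
Share of each gene in the summed CPM per kilobase of merged exons, for the 4 subunits (left) and all 6 TARPs (right), with 1 bar per library, bound libraries first. Gria2 takes 6.29% to 8.43% in bound and 18.2% to 18.8% in unbound libraries, and Cacng5 9.89% to 13.5% in bound and 2.36% to 3.79% in unbound libraries.

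Among the TARPs the rise was by far the largest for Cacng5, which encodes a type II TARP. Cacng5 (ENSMUSG00000040373, chr11:107874605-107915055, minus strand) stood at 61.8, 70.3 and 53.9 CPM in bound replicates 1 to 3 and at 7.40, 9.33, 10.5 and 10.4 CPM in unbound replicates 1 to 4. The groups lay far apart. Cacng5 rose 6.58-fold (log2 2.72, SE 0.14, edgeR adjusted p = 4.3e-08), a value above that of 97.4% of all genes tested. Cacng2 (ENSMUSG00000019146, chr15:77991748-78120028, minus strand), which encodes stargazin, the founding member of the family, rose 1.73-fold. It stood at 110.0, 108 and 146 CPM in bound replicates 1 to 3 and 76.2, 66.4, 69.7 and 68.0 CPM in unbound replicates 1 to 4, with no overlap (log2 0.79, SE 0.11, edgeR adjusted p = 7.2e-05).

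Cacng3 (ENSMUSG00000066189, chr7:122670492-122769393, plus strand), a type I TARP like stargazin, stood at 66.8, 74.6 and 88.1 CPM in bound replicates 1 to 3. In unbound replicates 1 to 4 it stood at 68.8, 55.4, 57.4 and 54.2 CPM. The groups overlapped through unbound replicate 1, and the log2 fold change was 0.38 (SE 0.11, edgeR adjusted p = 0.012). This call was lost without bound replicate 3 (log2 0.26, edgeR adjusted p = 0.059, over a range up to 0.31), against UBS libraries alone and with the length offset.

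Cacng8 (ENSMUSG00000053395, chr7:3390683-3415648, plus strand), a TARP known for its abundance in hippocampal pyramidal cells, was the least abundant of the 4 by CPM in bound libraries. It stood at 16.2, 17.8 and 18.4 CPM in bound replicates 1 to 3 and 15.2, 13.6, 14.2 and 13.3 CPM in unbound replicates 1 to 4. The groups did not overlap but lay close together (log2 0.31, SE 0.11, edgeR adjusted p = 0.026). The call was lost when any 1 library other than bound replicate 1 or unbound replicate 1 was left out (edgeR adjusted p = 0.05 to 0.076 for those 5, over a range from 6.9e-05 to 0.81 across 13 alternatives), and with the length offset the value was −0.033.

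The remaining TARPs, Cacng4 and Cacng7, were higher in bound libraries too, so that all 6 TARP genes rose with TMM scaling, though with the length offset Cacng3, Cacng7 and Cacng8 did not pass (0.14, 0.23 and −0.033). Both were named after their values were seen. Cacng4, a type I TARP, averaged 74.2 ± 5.32 CPM in bound libraries, against 22.5 ± 0.367 CPM in unbound ones, and so rose 3.29-fold (edgeR adjusted p = 2.4e-08). Cacng7, the other type II TARP, averaged 96.2 ± 16.1 CPM in bound libraries, against 65.9 ± 4.02 CPM in unbound ones, and so rose 1.46-fold (edgeR adjusted p = 0.0012). As a share of the 6 TARPs per kilobase, Cacng5 made up 12.2% ± 2.02 in bound and 3.27% ± 0.629 in unbound libraries, and Cacng4 15.6% ± 1.66 in bound and 8.35% ± 0.538 in unbound libraries. Cacng2 kept about the same share, at 16.5% ± 2.27 in bound and 16.8% ± 0.317 in unbound libraries. Cacng3 made up 20.6% ± 1.52 in bound and 28.0% ± 1.56 in unbound libraries, and Cacng7, with the largest share in both groups, 29.4% ± 2.49 in bound and 35.7% ± 0.884 in unbound libraries.

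The cornichons moved in opposite directions with TMM scaling. Cnih2 (ENSMUSG00000024873, chr19:5092868-5098521, minus strand), the main cornichon of hippocampal AMPA receptors, stood at 145, 160.2 and 165 CPM in bound replicates 1 to 3 and 92.6, 108, 116 and 104 CPM in unbound replicates 1 to 4. It rose 1.49-fold without overlap (log2 0.58, SE 0.09, edgeR adjusted p = 0.00014). With the length offset the rise was absent, at −0.089 on the log2 scale (edgeR adjusted p = 0.34), and its merged exons, at 1369 nucleotides, are the shortest of the 10 genes. Cnih3 (ENSMUSG00000026514, chr1:181352628-181460641, plus strand) stood at 46.9, 50.2 and 43.0 CPM in bound replicates 1 to 3 and 67.3, 60.7, 63.2 and 63.8 CPM in unbound replicates 1 to 4. It fell 1.36-fold without overlap (log2 −0.45, SE 0.08, edgeR adjusted p = 0.00059), and with library totals the value was −0.0098 (edgeR adjusted p = 0.93). With the length offset Cnih3 stood at −0.69 on the log2 scale (edgeR adjusted p = 3.5e-05), so that both cornichons were below 0 there. Per kilobase, the ratio of Cnih2 to Cnih3 was 6.77 ± 0.824 in bound and 3.32 ± 0.409 in unbound libraries, with no overlap. The length offset, which lowered the Cnih2 value more than that of Cnih3, was not applied to this ratio.

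**Figure D4:**
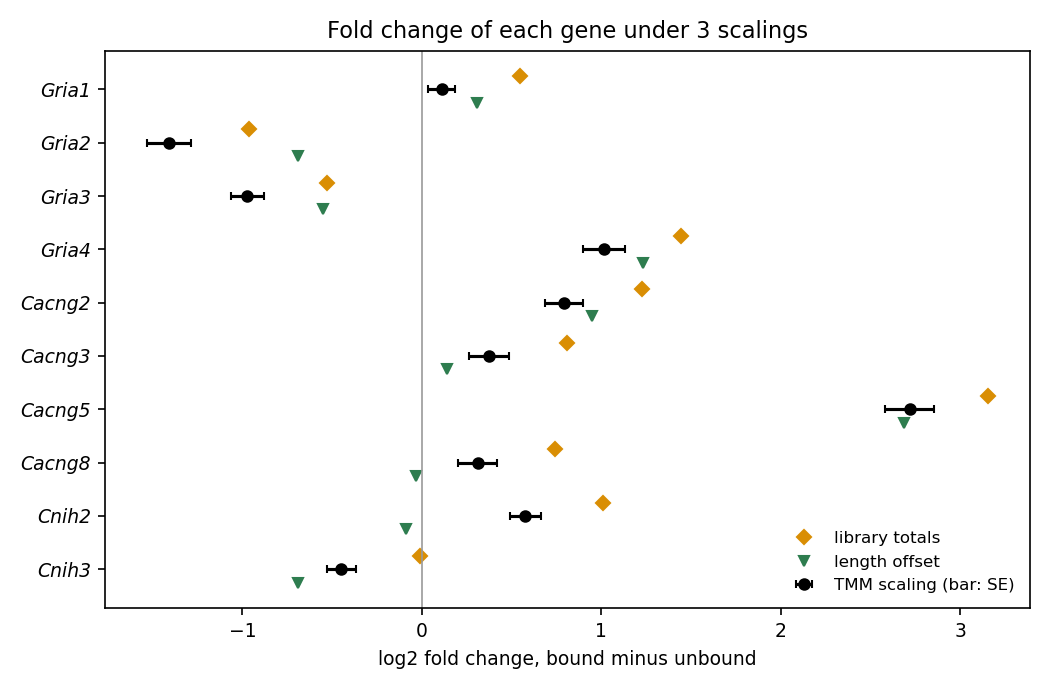
Log2 fold change of each gene, bound minus unbound, with TMM scaling (circles, bars are SE), with library totals (diamonds) and with the length offset (triangles). Gria2, Gria3, Gria4, Cacng2 and Cacng5 keep their direction and call under all 3, while Cnih2 and Cacng8 lie at −0.089 and −0.033 with the length offset.

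The ends of the coding sequences are shown because they carry the binding motifs for the scaffold proteins described next. The last 4 codons are in capitals and the stop codon follows, from the same transcripts.
Gria1: gggatgcccttgggaGCCACAGGATTGtaa
Gria2: gtatatggcatcgagAGTGTTAAAATTtag
Gria3: gtgtatggaacagaaAGTGTTAAGATCtag
Gria4: ttggctgtcattgcaTCGGACCTACCAtaa
Cacng2: acagccaaccgccggACCACGCCCGTAtga
Cacng3: ccggccaacagacgtACCACGCCTGTCtga
Cacng5: tatgaccagatgtcaTCATCTCCCTGCtga
Cacng8: acgctcaacaggaaaACCACGCCCGTGtag
The last 4 residues are the same in Gria2 and Gria3, which GRIP proteins and PICK1 are known to bind there, and differ at all 4 positions in Gria1, which is bound by SAP97. They are the same in Cacng2, Cacng3 and Cacng8, the ligand of PSD-95, while Cacng5 shares 1 of the 4 with them.

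Scaffold and trafficking genes of the AMPA receptor fell more often than they rose with TMM scaling. Of the 24 genes listed, 7 were higher and 14 lower, beside 31% of all genes tested higher and 30.7% lower. The median log2 fold change was −0.36, and the median over all genes tested was −0.0075. With library totals, which move all genes upward, 9 were higher and 9 lower, beside 47.5% of all genes higher and 18.9% lower. Grip2, a scaffold of the Gria2 and Gria3 tails, had the largest rise, 8.24-fold, with 44.3, 49.4 and 48.4 CPM in bound replicates 1 to 3 against 5.36 to 6.40 CPM in unbound libraries (log2 3.04, SE 0.10, edgeR adjusted p = 3e-09). Grip1 and Pick1, chosen after their values were seen, rose 2.33-fold and 1.86-fold (edgeR adjusted p = 2.6e-06 and 0.0026), whereas Dlg1 (SAP97), chosen likewise, fell 3.30-fold (edgeR adjusted p = 8.2e-08). The exons of Pick1 overlap those of another gene over 18.6% of their length. Dlg4 (PSD-95), also chosen so, averaged 374 ± 30.7 CPM in bound libraries, against 384 ± 13.8 CPM in unbound ones, and did not pass (log2 −0.039, edgeR adjusted p = 0.66). Dlg4 passed as higher with library totals and with the length offset, at 0.40 and 0.57 on the log2 scale.

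Myo6, a motor that draws receptors inward, had the largest fall of the list, 7.49-fold, at 5.48 ± 1.56 CPM in bound libraries, against 40.9 ± 3.07 CPM in unbound ones. Camk2a, the kinase that acts on GluA1 in plasticity, fell 4.17-fold, at 822 ± 103 CPM in bound libraries, against 3426 ± 951 CPM in unbound ones, and it is also a marker of excitatory neurons. Nsf, an ATPase that binds GluA2, fell 1.55-fold, but not past the threshold with library totals (log2 −0.20). The motor Myo5a did not pass (log2 0.063, edgeR adjusted p = 0.48), and passed as higher with library totals and with the length offset, at 0.49 and 0.75 on the log2 scale.

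Other proteins of the native AMPA receptor complex went both ways. Of 24 genes listed, 9 were higher and 10 lower, with a median log2 fold change of 0.081. Among all genes tested 31% were higher and 30.7% lower. Olfm1, a secreted olfactomedin, fell 1.93-fold (326 ± 29.3 CPM in bound, against 628 ± 3.71 CPM in unbound libraries). Frrs1l, which is needed early in receptor assembly, fell 2.51-fold (209.6 ± 12.4 CPM in bound, against 527 ± 24.8 CPM in unbound libraries). Shisa6, an auxiliary subunit that keeps receptors from desensitizing, fell 1.36-fold, but with library totals (log2 −0.0059) and with the length offset (log2 −0.15) it did not pass. Nrn1 (neuritin) had the largest fall, 33.9-fold, at 5.43 ± 0.415 CPM in bound libraries, against 184 ± 14.6 CPM in unbound ones. The exons of Nrn1 overlap those of another gene on the opposite strand over 22.3% of their length, and the strand setting of the counting is not stated. Shisa8 had the largest fitted rise (log2 3.17) but very few reads, its bound replicates holding 43, 18 and 39 counts and its unbound replicates 2, 4, 5 and 0.

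**Figure D5:**
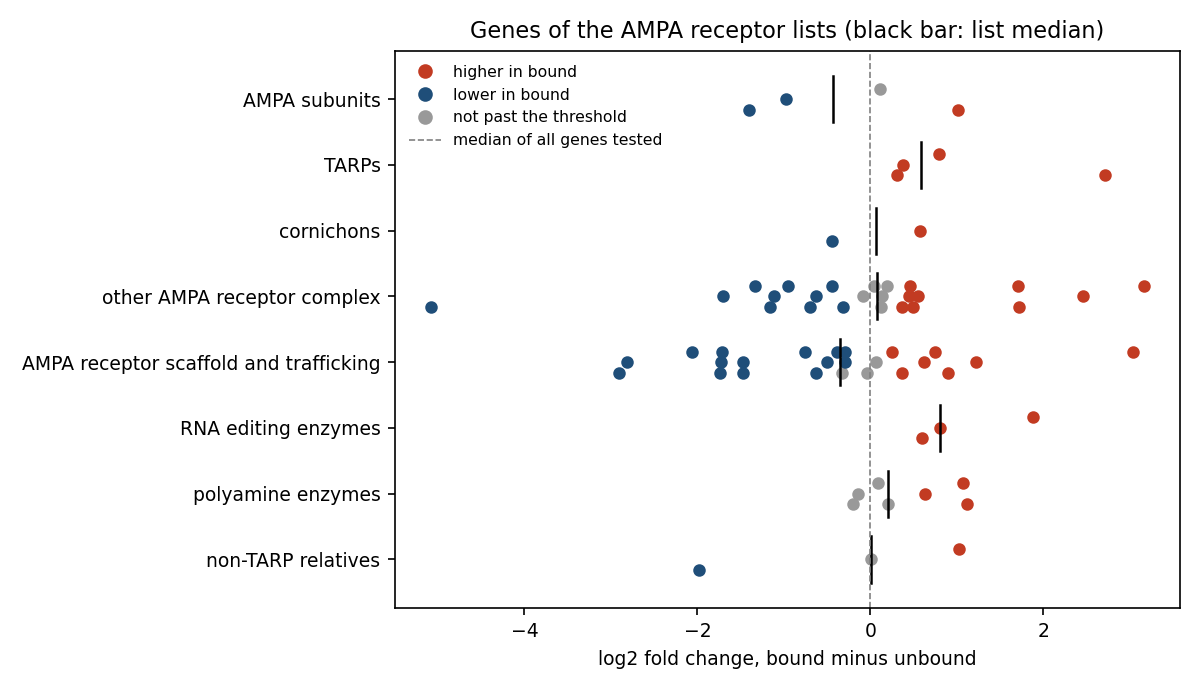
Log2 fold change, bound minus unbound, of each tested gene in the AMPA receptor lists, coloured by the call, with black bars at list medians and a dashed line at the median of all genes tested. The 3 editing genes and the 6 TARPs (4 in the TARP row, Cacng4 and Cacng7 in the complex row) lie to the right of the line (Cacng8 not with the length offset), and the scaffold row has 14 genes lower and 7 higher.

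The RNA editing genes were all higher in bound libraries, also with library totals and with the length offset. Among all genes tested 31% were higher, or 47.5% with library totals. Adarb1, which encodes the ADAR2 that edits the Gria2 Q/R site, stood at 160.5, 174 and 192 CPM in bound replicates 1 to 3 and 119.8, 119, 115 and 111 CPM in unbound replicates 1 to 4. It rose 1.51-fold without overlap (log2 0.60, SE 0.07, edgeR adjusted p = 3.7e-05). Adar (ADAR1), 16.8% of whose exon length is shared with another gene, rose 1.75-fold, and Adarb2, a relative without known editing activity that is also a marker of one class of interneurons, rose 3.70-fold (log2 1.89, or 2.49 with the length offset). Edited and unedited Gria2 reads are not separated in the counts.

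Of 7 polyamine genes, 3 were higher and 0 lower in the edgeR test, beside 31% of all genes tested higher and 30.7% lower. None was lower at an unadjusted p under 0.05 or by DESeq2 either. Azin2, an antizyme inhibitor, had the largest rise, 2.17-fold (23.6 ± 2.73 CPM in bound, against 10.9 ± 0.916 CPM in unbound libraries). Sms (spermine synthase), Amd1 and Azin1 did not pass, at −0.20, −0.14 and 0.085 on the log2 scale. With library totals, where 47.5% of all genes were higher, 6 of the 7 were higher, and without unbound replicate 1 Sms passed as lower (log2 −0.25, edgeR adjusted p = 0.014).

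Relatives of the TARPs and cornichons that are not AMPA receptor subunits were little expressed or divided. Cnih1, a cornichon of general secretory transport, rose 2.04-fold (34.4 ± 2.72 CPM in bound, against 16.8 ± 3.05 CPM in unbound libraries), and Cnih4 did not pass (log2 0.012, edgeR adjusted p = 0.95). Cacng1 had at most 10 counts in any library and was not tested. Cacng6 was also rare, its bound replicates holding 15, 5 and 4 counts and its unbound replicates 6, 25, 38 and 26, and its fall (log2 −1.99, edgeR adjusted p = 0.03) was lost with library totals, against UBS libraries alone and without any of 5 of the 7 libraries (edgeR adjusted p up to 0.27). Without bound replicate 1, the library with 15 counts, it was −2.72.

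Across the 7 libraries, the genes whose log2 CPM, centred per gene, lay closest to that of Gria2 were D630045J12Rik, Pkd2 and Mrtfb, with root mean square differences of 0.050, 0.069 and 0.073 among 8581 protein-coding genes of at least 10 CPM. The genes closest to Gria4 were Necab1, Phyhipl and Sdhaf4, at 0.067, 0.070 and 0.076. Such closeness can come from a like fold between the groups alone. The log2 fold changes were −1.45, −1.47 and −1.53 beside −1.41 for Gria2, and 1.03, 1.14 and 0.99 beside 1.02 for Gria4. Whether these genes are regulated together was not tested.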

How the data were processed

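The values are read counts per Ensembl gene as deposited by the authors, whole numbers without normalization. The submitters' processing notes name STAR 2.5.3a, HTSeq and mm10. Annotation release and strand setting: not given in the sources used here. IDs were named with GENCODE M21, which matched 37607 of 39017. All genes were tested with edgeR 4.0.16 in R 4.3.3 (filterByExpr by group, TMM, robust glmQLFit, glmQLFTest, Benjamini-Hochberg adjustment, threshold 0.05, no minimum fold). DESeq2 1.42.0 was an alternative. The length offset removes each library's lowess trend (span 0.3) of log2 CPM on merged exon length. Groups follow the labels; nothing says that libraries came from separate animals, so p-values reflect only how much these libraries vary, which may be technical. The 10 genes and all lists were chosen with earlier results of these data known. Named genes are the 10, and in each other list the 3 with the highest mean CPM and those with the largest rise and fall past the threshold; exceptions are marked. Dlx6os1, with 2 IDs, was left out of its marker list. Of the 10 genes, Cacng2 had the largest exon overlap with another gene (5.86% of its length).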

Additional observations from a re-analysis of the deposited data

Results flagged for a closer look

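In the unbound group, Gria1 and Gria2 each had 1 library far from the other 3, unbound replicate 1. For Gria1 it stood at 751 CPM and the others at 629 to 631 CPM, so that the gap was 0.991 of the whole range. For Gria2 it stood at 572 CPM and the others at 477 to 482 CPM, a gap of 0.946 of the range. In all, 17 sets of 4 unbound values were looked at. A set was flagged when its gap passed a cutoff that chance passes in about 1 of 20 sets. Both gaps lay above that cutoff, so the rate of 1 in 20 belongs to the cutoff and not to these gaps. The ratio of Gria2 to Gria1 in that library was like that of the other unbound libraries, at −0.39 on the log2 scale.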

How the results depend on the processing

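No paired analysis was possible because no pairing of bound with unbound libraries is given, and the replicate numbers used here do not mark pairs. A UBS title and a UBGS title end in the same number, and whether those libraries share animals is not given. Of 711 values recomputed under alternatives, 635 kept their direction and side of the threshold or moved little. Gria2, Gria3, Gria4, Cacng2 and Cacng5 did so under all 13 alternatives.

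With library totals the median log2 fold change over all genes was 0.43, against −0.0075 with TMM, and 9285 genes were higher and 3704 lower (71.5% higher in place of 50.3%). There Gria1 passed (0.55), Cnih3 did not (−0.0098), and 9 scaffold genes were lower, 6 polyamine genes higher, 2 relatives higher and 0 lower. With the length offset Gria1 passed (0.31), Cacng3 did not (0.14), and Cacng8 and Cnih2 turned to −0.033 and −0.089. Against UBGS libraries alone Gria1 passed (0.20) and 1 polyamine gene was lower, and against UBS libraries alone Cacng3 (0.30) and Cacng8 (0.28) did not pass and 0 relatives were lower. Leaving out 1 library at a time gave 0.094 to 0.20 for Gria1, 0.26 to 0.48 for Cacng3 and 0.27 to 0.37 for Cacng8, 0 to 1 lower polyamine genes, 0 to 1 lower relatives, and 10861 to 11831 genes called in place of 12076. Genes that passed in neither direction also changed sign: Sms (0.24) and Amd1 (0.30, passing) with library totals, Azin1 against UBGS libraries alone (−0.12), Cnih4 with DESeq2 (−0.016), the length offset (−0.029) and UBS libraries alone (−0.21), and Dlg4 with library totals (0.40, passing), the length offset (0.57, passing) and UBGS libraries alone (0.0096). Leaving out 1 library gave −0.0050 to 0.14 for Myo5a, −0.066 to 0.19 for Azin1, −0.079 to 0.21 for Cnih4 and −0.095 to 0.021 for Dlg4. The causes were not tested.

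With counts alone the bound and unbound shares were 63.6% and 45.0% for Gria1, 16.8% and 34.3% for Gria2, 11.8% and 17.8% for Gria3, and 2.97% for unbound Gria4. With the longest transcript they were 68.3% and 52.8% for Gria1, 9.67% and 21.5% for Gria2, and 13.5% and 22.2% for Gria3.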
